A study of Homo sapiens with 8 samples.

Results

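The keratins KRT8, KRT18, KRT19, KRT20, KRT23 and KRT80, the claudins CLDN3, CLDN4 and CLDN7 and the cadherin CDH1 are genes by which epithelial cells of the colon are commonly recognised. They were followed in HCT-116 cells, an established human colorectal cancer line, through 4 drug regimens. The 10 genes were taken by symbol from the 23857 genes of the deposited tables. Each was represented by the transcript with the highest mean count among those listed under its symbol. All 10 were among the 15681 genes that passed the filter on low counts and were tested.

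Cells received 40 µM 5-fluorouracil (5-FU, a pyrimidine analogue that blocks thymidylate synthase and activates p53) or its vehicle DMSO for 12 h, were rinsed, and then received 2.5 µM 3-MB-PP1 or DMSO for 4 h. The 4 groups were 5-FU then 3-MB-PP1, 5-FU then DMSO, DMSO then 3-MB-PP1, and DMSO then DMSO, with 2 libraries each. 3-MB-PP1 is a bulky purine analogue designed to fit kinases with an enlarged ATP pocket. The series names Cdk7 as the kinase inhibited, but the labels do not give the kinase allele the cells carried, and 1 cell line was used. Effects of 3-MB-PP1 through Cdk7 and through other kinases cannot be told apart in this design. Nothing in the labels says whether the 2 libraries of a group came from separate cultures, and the p-values therefore rest on a spread between libraries that may be technical.

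Keratins are intermediate filament proteins that assemble as obligate pairs of a type I and a type II chain. In simple epithelia such as the intestinal lining the type II keratin KRT8 pairs with the type I keratins KRT18, KRT19 and, in differentiated cells at the surface, KRT20. Claudins form the strands of tight junctions that seal the space between neighbouring cells, and CDH1 (E-cadherin) holds the cells together at adherens junctions, to whose cytoplasmic side catenins bind.

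Libraries held between 10560743 and 16728654 gene counts, except replicate 1 of DMSO then 3-MB-PP1, which held 50405817. The colon label was checked first. EPCAM, an epithelial surface protein, ranged from 97.0 to 127 RPKM over the 8 libraries, and CDX2, the intestinal transcription factor, ranged from 5.43 to 8.32 RPKM. Of other intestinal genes, CDX1 had 0 counts in each library, which allows up to 3 counts (0.0586 to 0.283 CPM), and VIL1, the microvillus protein villin, did not exceed 0.113 RPKM, while the carbonic anhydrase CA2 had 28.5 to 42.0 CPM. Markers of fibroblasts, leukocytes and endothelium were listed at 0 everywhere for COL1A2, DCN, LUM and CDH5, while 4 of 13 such markers (COL1A1, CD68, PECAM1 and KDR) were tested. The summed level of the 13 markers ranged from 30.8 to 34.2 CPM in 5-FU then 3-MB-PP1 libraries, 32.9 to 33.8 CPM in 5-FU then DMSO, 29.6 to 31.03 CPM in DMSO then 3-MB-PP1 and 27.9 to 30.97 CPM in DMSO then DMSO. KDR, an endothelial receptor, had 3.01 and 3.48 CPM in 5-FU then 3-MB-PP1 libraries, 0.989 and 0.961 CPM in 5-FU then DMSO, 4.999 and 4.52 CPM in DMSO then 3-MB-PP1 and 1.01 and 1.37 CPM in DMSO then DMSO. COL1A1, a fibroblast collagen, rose after 5-FU with a log2 fold change of 0.48 ± 0.12 (edgeR adjusted p = 0.00153). The part of such transcripts in the results below was not tested.

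The genes lie on 4 chromosomes of the hg19 build. KRT80 (chr12:52562780-52585784, minus strand), KRT8 (chr12:53290971-53298868, minus strand) and KRT18 (chr12:53342843-53346685, plus strand) belong to the type II keratin cluster, in which KRT18 is the one type I gene. KRT8 and KRT18 are direct neighbours, and the transcripts used here lie 44.0 kb apart with no other gene of the tables between them. Longer KRT8 transcripts, listed without a symbol, reach chr12:53343650, past the KRT18 start on the other strand, so the 2 genes overlap there. The sources used here do not say whether counting used strand, so reads from that overlap cannot be told apart. KRT20 (chr17:39032141-39041495), KRT23 (chr17:39078952-39093836) and KRT19 (chr17:39679869-39684641) lie on the minus strand of the type I cluster, KRT20 and KRT23 side by side at 37.5 kb, and KRT19 beyond 45 further genes. CLDN3 (chr7:73183327-73184600, minus strand) and CLDN4 (chr7:73245193-73247015, plus strand) are also direct neighbours, 60.6 kb apart. CLDN7 (chr17:7163222-7166264, minus strand) shares 38 bases with C17orf81 on the other strand, and CDH1 is at chr16:68771195-68869444 on the plus strand.

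Upstream sequence was available from RefSeq (GRCh38.p14) for 5 of the 10 genes, in 6 windows of 250 bases ending at an annotated start. The windows of CLDN4 and the nearer CLDN7 start lay in untranslated exon of longer annotated transcripts and are not printed. The windows shown include CLDN3, called in none of the comparisons, and CLDN7 (its upstream start), whose response to 3-MB-PP1 differed with the first drug. The others are those of KRT20, the one gene called lower after 5-FU, and KRT8, an abundant keratin called higher after it. The KRT8 window lies before the start of a longer transcript than the one counted, within an intron of still longer annotated transcripts. Capitals mark matches, on either strand, to the GC box GGGCGG or, in KRT20 and KRT8, to the p53 half-site.
CLDN3, chr7:73770271-73770520, minus strand: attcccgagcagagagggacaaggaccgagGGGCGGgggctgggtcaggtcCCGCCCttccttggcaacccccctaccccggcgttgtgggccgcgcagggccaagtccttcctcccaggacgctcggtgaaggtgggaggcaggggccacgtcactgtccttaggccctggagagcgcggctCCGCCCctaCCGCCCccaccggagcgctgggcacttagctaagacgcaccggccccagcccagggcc
CLDN7, chr17:7263214-7263463, minus strand: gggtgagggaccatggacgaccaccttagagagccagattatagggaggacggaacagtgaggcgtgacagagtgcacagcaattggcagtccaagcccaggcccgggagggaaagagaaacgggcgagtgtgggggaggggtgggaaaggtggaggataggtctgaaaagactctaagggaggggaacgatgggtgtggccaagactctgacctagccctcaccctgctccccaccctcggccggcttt
KRT20, chr17:40885243-40885492, minus strand: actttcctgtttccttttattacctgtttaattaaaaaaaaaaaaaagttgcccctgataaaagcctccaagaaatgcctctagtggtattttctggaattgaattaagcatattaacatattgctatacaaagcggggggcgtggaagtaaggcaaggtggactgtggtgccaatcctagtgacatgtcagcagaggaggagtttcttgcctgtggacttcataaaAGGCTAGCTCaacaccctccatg
KRT8, chr12:52926470-52926719, minus strand: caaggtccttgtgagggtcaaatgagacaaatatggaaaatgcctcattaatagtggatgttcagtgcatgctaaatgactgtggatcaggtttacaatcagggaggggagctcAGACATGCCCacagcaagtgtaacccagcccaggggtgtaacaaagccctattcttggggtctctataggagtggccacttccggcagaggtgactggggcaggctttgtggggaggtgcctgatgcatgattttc
The CLDN3 window had a GC content of 71.6% and 4 GC boxes, and the CLDN7 window 60.4% and no match. The KRT20 window had 41.2% and 1 p53 half-site ending 14 bases before the start. The KRT8 window had 50.4% and 1 p53 half-site ending 127 bases before the start of the longer transcript, not of the one counted. The median GC content over all 35116 promoter windows was 58%. GC boxes were found in 42.6% of all windows and p53 half-sites in 5.57%, and among the 6 windows half-sites were in those of KRT20 and KRT8. A link between these matches and the response to 5-FU was not tested. Of the windows not printed, that of CLDN4 held 2 AP-1 sites (TGANTCA, in 6.57% of all windows) and that of the nearer CLDN7 start held 4 E-boxes (CAGGTG, in 17.5%). The sequence AACCNGTT, bound by grainyhead-like factors, was in none of the 6 windows and in 1.49% of all. These are matches of letters and not binding sites.

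Levels per transcript length separated the genes into 3 abundant keratins and 7 genes of low to moderate level. In DMSO then DMSO libraries KRT8 averaged 639 ± 27.0 RPKM, KRT18 571 ± 3.25 RPKM and KRT19 284 ± 20.3 RPKM (SD, n = 2), which placed them 110th, 127th and 253rd among the 15681 tested genes. CLDN7 followed at 16.4 ± 0.931 RPKM and CLDN4 at 10.9 ± 0.264 RPKM. KRT23 (4.98 ± 0.168 RPKM), CDH1 (3.72 ± 0.0375 RPKM), CLDN3 (2.72 ± 0.375 RPKM) and KRT80 (1.47 ± 0.277 RPKM) were low, and KRT20, at 0.796 ± 0.367 RPKM, was the lowest of the 10. The libraries of neighbours in this order did not overlap in this group. In 5-FU then DMSO libraries CLDN4 (22.9 ± 0.994 RPKM) and CLDN7 (20.3 ± 3.38 RPKM) overlapped, with CLDN4 the higher by mean. In 5-FU then 3-MB-PP1 libraries CLDN7 (15.4 ± 2.55 RPKM) and CLDN4 (13.4 ± 0.493 RPKM) overlapped, as did CDH1 (4.04 ± 0.0516 RPKM) and KRT23 (3.97 ± 0.334 RPKM).

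**Figure D1:**
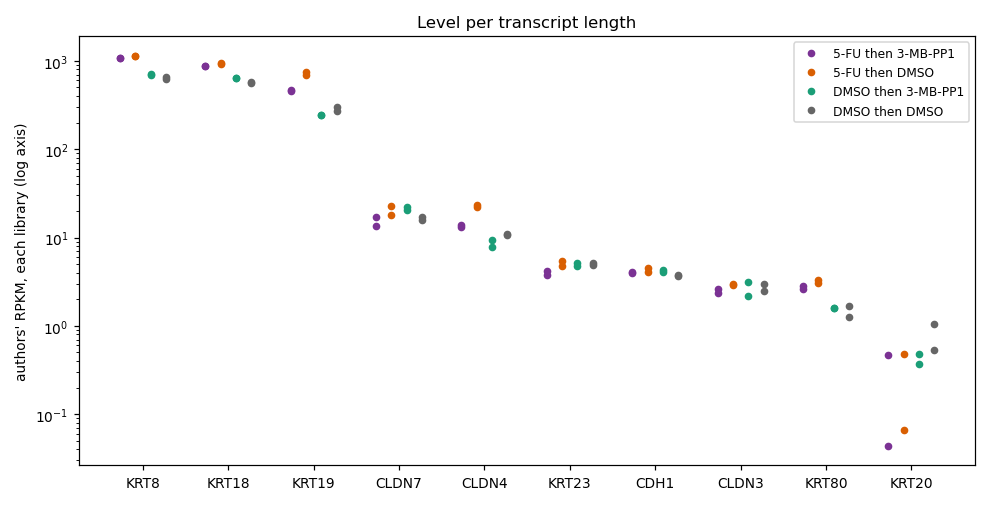
Level of each gene per transcript length in the 8 libraries, in the authors' RPKM on a log axis, coloured by group. KRT8, KRT18 and KRT19 lie between 243 and 1144 RPKM, and KRT20 lies below the other 9 genes.

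After 5-FU the abundant keratins, KRT80 and CLDN4 were higher, while KRT20 was lower. Against DMSO then DMSO, 6 of the 10 genes rose in 5-FU then DMSO cells (KRT8, KRT18, KRT19, KRT80, CLDN4 and CLDN7), 1 fell (KRT20) and 3 did not pass the test (KRT23, CLDN3 and CDH1), in edgeR's quasi-likelihood test at a Benjamini-Hochberg adjusted p under 0.05. Of all genes tested, 43.9% were called in this comparison, 21.3% higher and 22.6% lower. The median log2 fold change of the 10 genes was 0.48, beside 0.00 over all genes tested. The 10 genes were chosen with earlier results of these data known, so the choice may have shaped this gap. In a bulk measurement such as this a change in the share of cells that express a gene and a change in its RNA per cell cannot be told apart.

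When 3-MB-PP1 followed 5-FU, KRT19, CLDN4, CLDN7 and KRT23 were lower than in 5-FU then DMSO cells and none of the 10 was called higher. That comparison called 4 of 10 genes, with 32.9% of all genes called, 15.7% higher and 17.2% lower. 3-MB-PP1 after DMSO raised KRT18 and CLDN7 and lowered KRT19 and CLDN4 against DMSO then DMSO, 4 of 10 genes where 28.5% of all were called, 11.6% higher and 16.9% lower. The effect of 3-MB-PP1 after 5-FU was below its effect after DMSO for KRT18, KRT19 and CLDN7, 3 of 10 genes in a test that called 4.18% of all genes, 2.14% higher and 2.04% lower. With both drugs, 5 genes were higher than in DMSO then DMSO cells (KRT8, KRT18, KRT19, KRT80 and CLDN4) and 2 were lower (KRT20 and KRT23), where 50.2% of all genes were called, 24% higher and 26.3% lower. These comparisons share libraries with each other, and DMSO then DMSO serves as control in 3 of them.

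Scaling to the ERCC spike-in RNAs, which made up 2.18% to 4.16% of the authors' library totals and varied within groups, left none of the 10 genes past the threshold in edgeR. All 25 calls named above were lost under it, with the same sign in each of the 25. At an unadjusted p under 0.05 the spike-in scaling had 4 of the 10 genes after 5-FU (KRT19, KRT20, KRT80 and CLDN4), 0 for 3-MB-PP1 after DMSO, 0 for 3-MB-PP1 after 5-FU, 1 with both drugs (KRT20) and 0 for the difference between the effects. It moved the median log2 fold change of all genes by 0.12 after 5-FU, 0.20 for 3-MB-PP1 after DMSO, -0.12 for it after 5-FU, and -0.32 for the difference between the effects. Calls over all genes under it were 93 higher and 150 lower after 5-FU, against 3337 and 3551 with TMM, 107 higher and 5 lower for 3-MB-PP1 after DMSO, against 1815 and 2657, and 41 higher and 12 lower for it after 5-FU, against 2463 and 2697. The folds below are therefore changes relative to the other genes of a library.

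**Figure D2:**
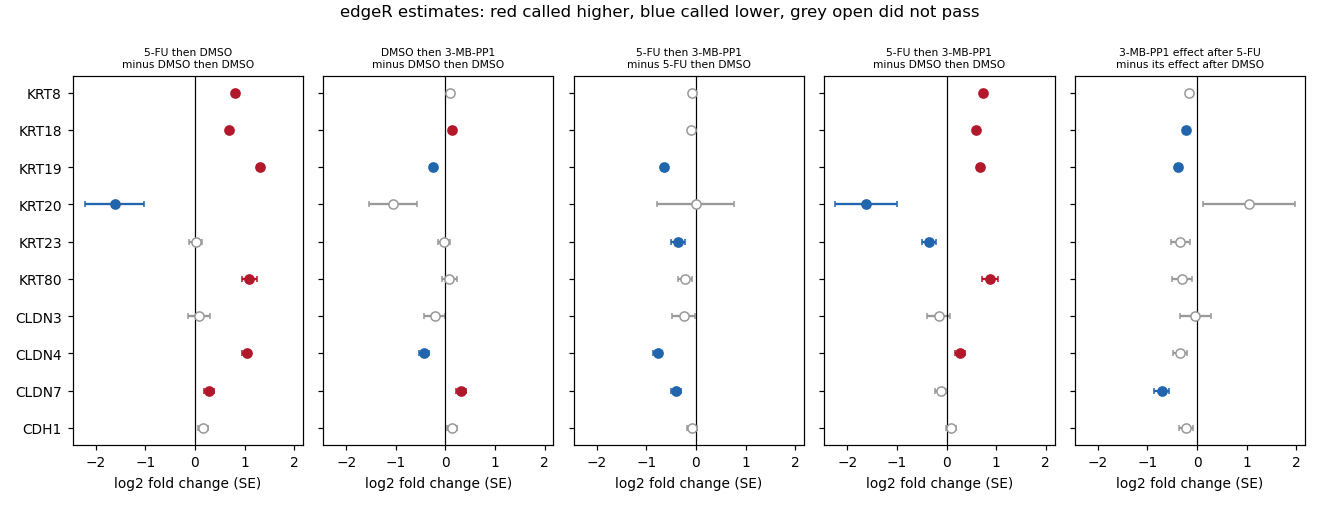
Log2 fold change of each gene with its standard error (edgeR), in 4 comparisons and, at the right, the effect of 3-MB-PP1 after 5-FU minus its effect after DMSO, all on 1 scale. Filled points passed the threshold. KRT19, at 1.31, is the highest point after 5-FU, and CLDN7, at -0.72, is the lowest filled point at the right.

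KRT8, the type II keratin of simple epithelia, had 1955 and 1940.4 CPM in 5-FU then 3-MB-PP1 libraries, 2050.1 and 2069 CPM in 5-FU then DMSO, 1238 and 1272 CPM in DMSO then 3-MB-PP1, and 1141 and 1212 CPM in DMSO then DMSO. All 4 libraries with 5-FU stood above all 4 without it. The log2 fold change was 0.81 ± 0.04 (SE) after 5-FU (edgeR adjusted p = 1.69e-14) and 0.73 ± 0.04 with both drugs (adjusted p = 1.59e-13). 3-MB-PP1 gave 0.09 ± 0.04 after DMSO (adjusted p = 0.101) and -0.08 ± 0.04 after 5-FU (adjusted p = 0.141), neither past the threshold. Without replicate 2 of DMSO then DMSO the first of these passed (0.14), as did the difference between the effects (-0.22, against -0.17 ± 0.06 with all libraries, adjusted p = 0.102).

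KRT18, the type I partner of KRT8, followed with 1293 and 1283 CPM in 5-FU then 3-MB-PP1, 1348 and 1415 CPM in 5-FU then DMSO, 939 and 941 CPM in DMSO then 3-MB-PP1, and 855 and 862 CPM in DMSO then DMSO. No 2 groups overlapped, and the groups with 5-FU were again the higher ones. It rose by 0.69 ± 0.04 on the log2 scale after 5-FU (adjusted p = 4.83e-13) and by 0.59 ± 0.04 with both drugs (adjusted p = 1.21e-11). 3-MB-PP1 after DMSO gave a small rise of 0.13 ± 0.04 (adjusted p = 0.0201), and 3-MB-PP1 after 5-FU gave -0.10 ± 0.04 (adjusted p = 0.0641), which passed without replicate 1 of 5-FU then DMSO (-0.14) or either DMSO then DMSO library (-0.11). The difference between these effects was -0.23 ± 0.06 (adjusted p = 0.0221). The small rise lost its call without any 1 of its 4 libraries (adjusted p between 0.0561 and 0.0851 in those 4 fits, and between 0.00313 and 0.999 over all 16 alternatives). The difference lost its call in 5 of the 8 fits without 1 library, those without either 5-FU then 3-MB-PP1 library, replicate 2 of 5-FU then DMSO, replicate 1 of DMSO then 3-MB-PP1 or replicate 1 of DMSO then DMSO (adjusted p between 0.0557 and 0.0750, and between 0.00083 and 0.996 over 15 alternatives).

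KRT8 and KRT18 have many processed copies in the genome, with 50 pseudogenes named after KRT8 and 67 after KRT18 in GENCODE v29, none of which is listed in the tables. How reads shared with these copies were counted is not given in the sources used here, so the levels of both genes are uncertain to that extent.

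KRT19, the smallest type I keratin of simple epithelia, moved most among the abundant keratins. It had 699.9 and 665 CPM in 5-FU then 3-MB-PP1 libraries, 1098 and 1027 CPM in 5-FU then DMSO, 362 and 354 CPM in DMSO then 3-MB-PP1, and 407 and 450.1 CPM in DMSO then DMSO. The 4 groups did not overlap, with 5-FU then DMSO at the top and DMSO then 3-MB-PP1 at the bottom. After 5-FU it was 2.48-fold higher, a log2 fold change of 1.31 ± 0.05 (adjusted p = 6.35e-17), and with both drugs the value was 0.67 ± 0.05 (adjusted p = 4.33e-11). 3-MB-PP1 lowered it in both settings, with log2 fold changes of -0.64 ± 0.05 after 5-FU (adjusted p = 7.05e-10) and -0.26 ± 0.05 after DMSO (adjusted p = 0.000458). The difference between the effects was -0.38 ± 0.07 (adjusted p = 0.00212). Under spike-in scaling the fall after DMSO was -0.06, or -0.25 relative to the median of all genes under that scaling. No fit without 1 library ended any of these 5 calls. Of 5 pseudogenes named after KRT19 in GENCODE v29, 1 (KRT19P2) is in the tables.

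**Figure D3:**
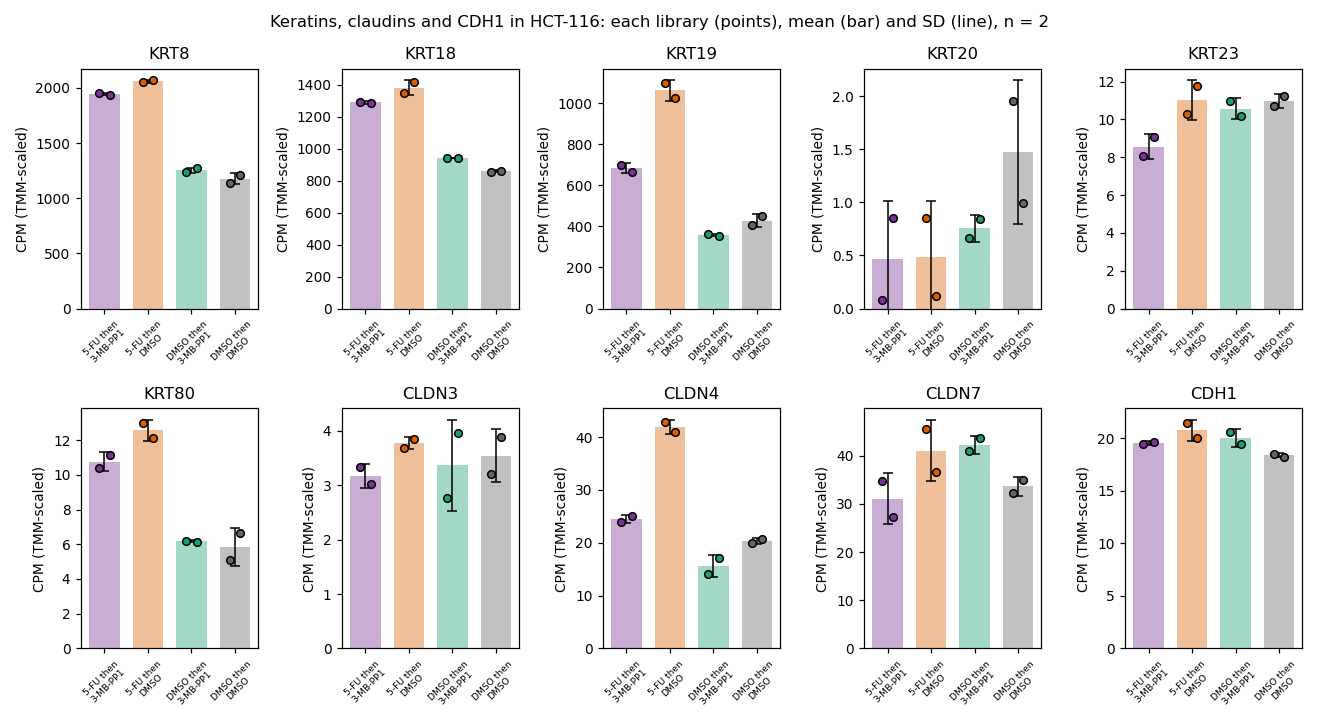
Library-scaled CPM of each gene, with 1 point per library, bars for group means and lines for the SD (n = 2, cut at 0), on linear axes. KRT8, KRT18, KRT19 and KRT80 are higher in both 5-FU groups, and these genes and CLDN4 are highest in 5-FU then DMSO.

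Ratios between transcripts of 1 library do not depend on how libraries are scaled. KRT19 per KRT18, from the authors' RPKM, was 0.540 and 0.517 in 5-FU then 3-MB-PP1 libraries, 0.812 and 0.724 in 5-FU then DMSO, 0.385 and 0.375 in DMSO then 3-MB-PP1, and 0.474 and 0.521 in DMSO then DMSO. The ratio was highest in 5-FU then DMSO and lowest in DMSO then 3-MB-PP1, while the 5-FU then 3-MB-PP1 and DMSO then DMSO libraries overlapped. KRT8 per KRT18 differed less, with means of 1.23 in 5-FU then 3-MB-PP1, 1.22 in 5-FU then DMSO, 1.09 in DMSO then 3-MB-PP1 and 1.12 in DMSO then DMSO. Each library with 5-FU was above each library without it in this ratio.

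The summed type II keratins (KRT8 and KRT80) per summed type I keratins (KRT18, KRT19, KRT20 and KRT23) came to 0.802 and 0.813 in 5-FU then 3-MB-PP1, 0.685 and 0.692 in 5-FU then DMSO, 0.775 and 0.800 in DMSO then 3-MB-PP1, and 0.736 and 0.752 in DMSO then DMSO. It was lowest in 5-FU then DMSO, the group in which KRT19 made up 44.7% and 41.9% of the type I RPKM, against 31.9% and 34.0% in DMSO then DMSO. Together KRT8, KRT18 and KRT19 took 0.396% and 0.389% of gene counts in 5-FU then 3-MB-PP1 libraries, 0.452% and 0.449% in 5-FU then DMSO, 0.258% and 0.258% in DMSO then 3-MB-PP1, and 0.239% and 0.247% in DMSO then DMSO. No test was run on these ratios and shares.

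**Figure D4:**
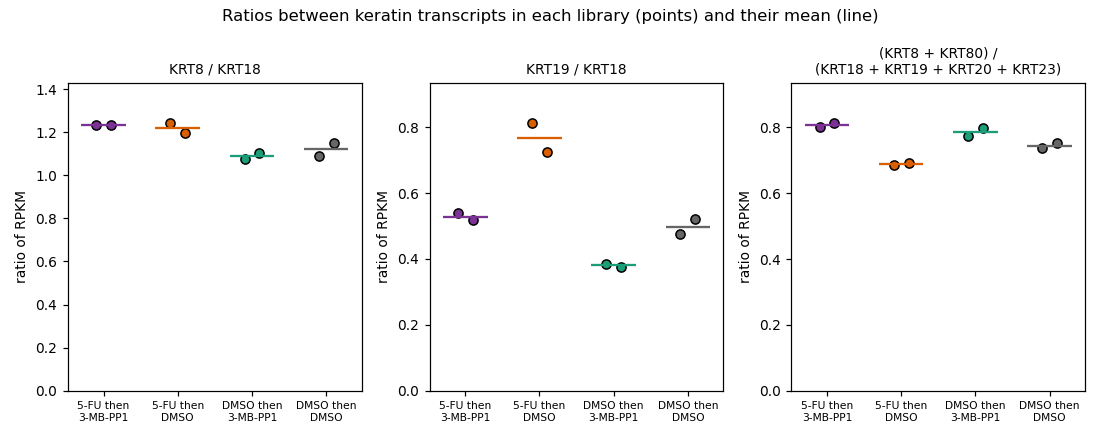
RPKM ratios between keratin transcripts in each library (points) with group means (lines), on linear axes from 0. KRT19 per KRT18 is highest in 5-FU then DMSO, at 0.812 and 0.724, and the type II to type I ratio is lowest there.

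KRT80, a type II keratin of low level here, had 10.4 and 11.1 CPM in 5-FU then 3-MB-PP1 libraries, 12.99 and 12.1 CPM in 5-FU then DMSO, 6.21 and 6.12 CPM in DMSO then 3-MB-PP1, and 5.07 and 6.64 CPM in DMSO then DMSO. Both 5-FU groups stood above both groups without it, and the groups without 5-FU overlapped. It rose by 1.10 ± 0.15 on the log2 scale after 5-FU (adjusted p = 1.03e-06) and by 0.88 ± 0.16 with both drugs (adjusted p = 4.51e-05). The value for 3-MB-PP1 after 5-FU was -0.22 ± 0.13 (adjusted p = 0.211), and for 3-MB-PP1 after DMSO it was 0.08 ± 0.16 (adjusted p = 0.757).

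KRT23, a type I keratin, was near the same level in 3 groups and lower in the fourth. It had 8.08 and 9.05 CPM in 5-FU then 3-MB-PP1 libraries, 10.3 and 11.8 CPM in 5-FU then DMSO, 10.97 and 10.2 CPM in DMSO then 3-MB-PP1, and 10.7 and 11.2 CPM in DMSO then DMSO. Only the libraries with both drugs were below all others. The log2 fold change was 0.01 ± 0.13 after 5-FU (adjusted p = 0.950), -0.37 ± 0.14 for 3-MB-PP1 after 5-FU (adjusted p = 0.0417) and -0.35 ± 0.14 with both drugs (adjusted p = 0.0402). DESeq2 called neither of these falls. For 3-MB-PP1 after 5-FU the call also ended without either 5-FU then 3-MB-PP1 library or replicate 2 of 5-FU then DMSO, at -0.26 to -0.46 on the log2 scale. With both drugs it ended without any 1 of the 4 libraries compared, at -0.26 to -0.43.

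KRT20, a type I keratin of differentiated intestinal epithelium, was barely detected. Its counts were 1 and 11 in 5-FU then 3-MB-PP1 libraries, 13 and 2 in 5-FU then DMSO, 34 and 9 in DMSO then 3-MB-PP1, and 25 and 13 in DMSO then DMSO. Scaled for depth these were 0.0793 and 0.851 CPM, 0.857 and 0.120 CPM, 0.664 and 0.848 CPM, and 1.95 and 0.992 CPM in the same order of groups. Each drug-treated library was below both DMSO then DMSO libraries, and 1 library in each 5-FU group had under 3 counts, where 3 counts correspond to 0.238 and 0.180 CPM in these libraries. The log2 fold change was -1.62 ± 0.59 after 5-FU (adjusted p = 0.0279) and -1.63 ± 0.62 with both drugs (adjusted p = 0.0325). For 3-MB-PP1 after DMSO it was -1.06 ± 0.48 (adjusted p = 0.106), which passed without the filter on low counts and with only those 2 groups in the fit.

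Counted directly, 15 KRT20 counts in 5-FU then DMSO against 38 in DMSO then DMSO gave a depth-scaled ratio of 0.322 (95% exact interval 0.164 to 0.599), and 12 counts in 5-FU then 3-MB-PP1 gave 0.320 (0.152 to 0.626) against the same 38. DMSO then 3-MB-PP1, with 43 counts, gave 0.474 (0.299 to 0.754). These intervals cover counting error only. Between 5-FU then 3-MB-PP1 and 5-FU then DMSO the ratio was 0.996 (0.426 to 2.28), so a difference of 2-fold either way was not detectable at this depth. DESeq2 made neither KRT20 call. After 5-FU the call was lost without replicate 2 of 5-FU then DMSO (log2 fold change -0.77) or replicate 1 of DMSO then DMSO (-1.05). With both drugs it was lost without replicate 1 of 5-FU then 3-MB-PP1 (-0.77) or replicate 1 of DMSO then DMSO (-1.07).

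Claudins differed from one another. CLDN4, a sealing claudin and, like CLDN3, a receptor of Clostridium perfringens enterotoxin, had 23.9 and 25.1 CPM in 5-FU then 3-MB-PP1 libraries, 42.9 and 40.9 CPM in 5-FU then DMSO, 14.2 and 17.1 CPM in DMSO then 3-MB-PP1, and 20.0 and 20.7 CPM in DMSO then DMSO. The 4 groups did not overlap, and their order was that of KRT19. The gene was 2.06-fold higher after 5-FU, a log2 fold change of 1.04 ± 0.09 (adjusted p = 1.22e-09). 3-MB-PP1 lowered it, with log2 fold changes of -0.77 ± 0.09 after 5-FU (adjusted p = 6.17e-07) and -0.43 ± 0.10 after DMSO (adjusted p = 0.00225), and the difference of -0.34 ± 0.14 between these effects did not pass (adjusted p = 0.182). With both drugs it was 0.27 ± 0.10 above DMSO then DMSO (adjusted p = 0.0332). The fall after DMSO was -0.25 and not called without replicate 1 of DMSO then 3-MB-PP1, the deepest library. The value with both drugs was called neither by DESeq2 nor without any 1 of its 4 libraries, at 0.24 to 0.32.

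CLDN3, the neighbour of CLDN4 on chromosome 7, had 3.33 and 3.02 CPM in 5-FU then 3-MB-PP1 libraries, 3.69 and 3.85 CPM in 5-FU then DMSO, 2.77 and 3.96 CPM in DMSO then 3-MB-PP1, and 3.20 and 3.89 CPM in DMSO then DMSO. It was called in no comparison, and the 2 libraries of DMSO then 3-MB-PP1, the lowest and the highest of the 8, enclosed all the others. Its log2 fold change was 0.09 ± 0.22 after 5-FU (adjusted p = 0.787) and -0.25 ± 0.23 for 3-MB-PP1 after 5-FU (adjusted p = 0.439). It had 39 to 142 counts per library, and changes as large as those of CLDN7 were not detectable at this depth.

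CLDN7, a claudin found along the lateral membrane where it binds EPCAM, had 34.8 and 27.3 CPM in 5-FU then 3-MB-PP1 libraries, 45.6 and 36.5 CPM in 5-FU then DMSO, 41.0 and 43.6 CPM in DMSO then 3-MB-PP1, and 32.3 and 35.0 CPM in DMSO then DMSO. It was higher with either drug alone than with both or with none. The log2 fold change was 0.28 ± 0.10 after 5-FU (adjusted p = 0.0278), 0.32 ± 0.10 for 3-MB-PP1 after DMSO (adjusted p = 0.0183) and -0.40 ± 0.10 for 3-MB-PP1 after 5-FU (adjusted p = 0.0044). With both drugs it was -0.12 ± 0.11 (adjusted p = 0.391). The difference between the 2 effects of 3-MB-PP1, -0.72 ± 0.14, passed the test (adjusted p = 0.00379) and kept its call in each of the 8 fits without 1 library, at -0.56 to -0.92.

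The single effects behind that difference each depended on 1 or 2 libraries. The rise of CLDN7 after 5-FU lost its call without replicate 1 of 5-FU then DMSO (0.12) or replicate 1 of DMSO then DMSO (0.23), and with DESeq2. Its rise for 3-MB-PP1 after DMSO lost its call without replicate 1 of DMSO then DMSO (0.26) and with DESeq2. The fall for 3-MB-PP1 after 5-FU lost its call without replicate 2 of 5-FU then 3-MB-PP1 (-0.25) or replicate 1 of 5-FU then DMSO (-0.24). CLDN7 overlaps C17orf81 on the other strand and the sources used here do not say whether counting used strand, so reads from their 38 shared bases cannot be told apart.

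In RPKM, CLDN4 per CLDN7 was 0.758 and 1.01 in 5-FU then 3-MB-PP1 libraries, 1.04 and 1.23 in 5-FU then DMSO, 0.381 and 0.433 in DMSO then 3-MB-PP1, and 0.681 and 0.651 in DMSO then DMSO. The ratio was lowest in DMSO then 3-MB-PP1, where CLDN4 was low and CLDN7 high, and the groups did not overlap.

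CDH1, the adhesion molecule of the adherens junction, had 19.4 and 19.6 CPM in 5-FU then 3-MB-PP1 libraries, 21.4 and 20.0 CPM in 5-FU then DMSO, 20.6 and 19.4 CPM in DMSO then 3-MB-PP1, and 18.5 and 18.2 CPM in DMSO then DMSO. It was called in no comparison. Its log2 fold change was 0.17 ± 0.10 after 5-FU (adjusted p = 0.176), 0.14 ± 0.10 for 3-MB-PP1 after DMSO (adjusted p = 0.316), -0.08 ± 0.10 for it after 5-FU (adjusted p = 0.562) and 0.09 ± 0.10 with both drugs (adjusted p = 0.510).

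Most other keratins were too scarce to be tested. Of 25 further type I keratins 4 were tested, and of 24 further type II keratins 1 was. The 4 type I keratins summed to 28.9 to 31.4 CPM in DMSO then DMSO. After 5-FU 2 of these 4 were called higher and 2 were not called. The 1 type II keratin was called higher, where 21.3% of all genes were. When 3-MB-PP1 followed 5-FU, 1 of the 4 was called lower and 3 were not called, where 17.2% of all genes were called lower. KRT15, a type I keratin of basal cells, had 6.50 and 7.04 CPM in 5-FU then 3-MB-PP1 libraries, 14.0 and 13.2 CPM in 5-FU then DMSO, 3.30 and 2.54 CPM in DMSO then 3-MB-PP1, and 3.28 and 4.12 CPM in DMSO then DMSO. It rose by 1.88 ± 0.16 on the log2 scale after 5-FU (adjusted p = 6.06e-10) and had a log2 fold change of -1.01 ± 0.15 when 3-MB-PP1 followed (adjusted p = 9.65e-06). KRT7, the type II keratin of ductal epithelia, was called higher after 5-FU (adjusted p = 0.0012), at 0.923 and 1.02 CPM in 5-FU then DMSO against 0.156 and 0.0763 CPM in DMSO then DMSO, where it had 2 and 1 counts.

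Of 12 further claudins tested, 2 rose after 5-FU (CLDN15 by 0.89 ± 0.14 and CLDND1 by 0.15 ± 0.05), 0 fell and 10 did not pass. Of 17 other tight junction genes 6 rose and 4 fell after 5-FU, where 21.3% of all genes were called higher and 22.6% lower. Among them the polarity protein CRB3 and the scaffold TJP3 (ZO-3) rose by 0.65 ± 0.16 and 0.67 ± 0.14 after 5-FU and had log2 fold changes of -0.42 ± 0.15 and -0.42 ± 0.13 when 3-MB-PP1 followed. JAM3, an adhesion molecule of the immunoglobulin family, fell, with a log2 fold change of -2.11 ± 0.35 after 5-FU, at 0.528 and 0.601 CPM in 5-FU then DMSO against 2.50 and 2.44 CPM in DMSO then DMSO. For 3-MB-PP1 after 5-FU this list had 1 gene higher, 4 lower and 12 not called, 5 of 17 where 32.9% of all genes were called.

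Of the 12 adherens junction genes other than CDH1 that were tested, 8 rose after 5-FU, 1 fell and 3 did not pass, with a median log2 fold change of 0.21. The nectin PVRL4 rose by 2.64 ± 0.13, to 32.8 and 31.1 CPM in 5-FU then DMSO against 5.77 and 4.50 CPM in DMSO then DMSO, plakoglobin (JUP) rose by 0.92 ± 0.07 and P-cadherin (CDH3) by 0.56 ± 0.07. Of 12 desmosomal genes and keratin linkers 7 rose, 2 fell and 3 did not pass, with a median of 0.18. Plectin (PLEC), which ties keratin filaments to other structures, rose by 1.03 ± 0.05, the desmosomal cadherin DSC3 by 0.70 ± 0.10 and plakophilin 3 (PKP3) by 0.54 ± 0.07. When 3-MB-PP1 followed 5-FU, PVRL4 (-0.49 ± 0.10) and PKP3 (-0.38 ± 0.07) were lower, while desmoglein 2 (DSG2, 0.36 ± 0.06) and epiplakin (EPPK1, 0.44 ± 0.09) were higher. For each of these lists the share called is to be read beside the 43.9% of all genes called after 5-FU.

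**Figure D5:**
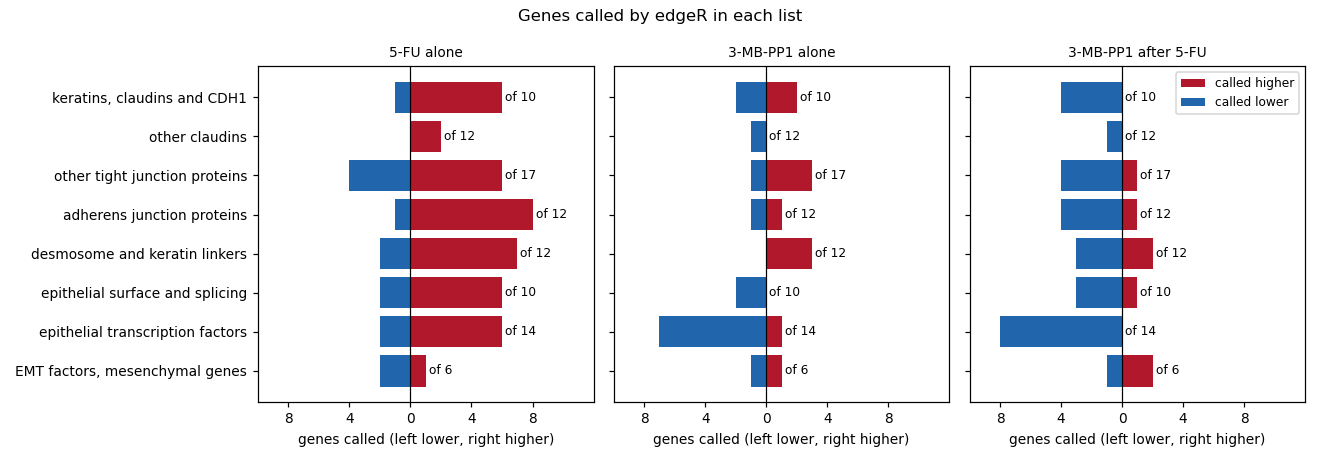
Number of genes called higher (right) and lower (left) by edgeR in each list with 5 or more tested genes, for 3 comparisons, with the number tested beside each bar. After 5-FU 8 of 12 adherens junction genes and 7 of 12 desmosomal genes and linkers were called higher. For 3-MB-PP1 after 5-FU 8 of 14 epithelial transcription factors were called lower.

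Epithelial transcription factors were called in both directions after 5-FU and mostly lower for 3-MB-PP1. Of 14 tested, 6 were higher after 5-FU, 2 were lower and the other 6 missed the threshold, where 21.3% of all genes were called higher and 22.6% lower. The grainyhead-like factor GRHL3 (3.43 ± 0.38), OVOL1 (0.90 ± 0.17) and the ETS factor ELF3 (0.90 ± 0.12) rose most. GRHL3 was barely detected in DMSO then DMSO, with 3 and 7 counts (0.234 and 0.534 CPM), against 3.76 and 4.69 CPM in 5-FU then DMSO. For 3-MB-PP1 after DMSO 1 was higher, 7 were lower and 6 did not pass, with a median log2 fold change of -0.41, where 11.6% of all genes were called higher and 16.9% lower. The 1 called higher was GRHL3 (1.61 ± 0.46), which had also risen after 5-FU. Both of its values rest on the 3 and 7 counts in DMSO then DMSO. For 3-MB-PP1 after 5-FU 0 were higher, 8 lower and 6 did not pass, with a median of -0.51, where 17.2% of all genes were called lower. Among the 8 were OVOL1 (-1.14 ± 0.18), the pioneer factor FOXA1 (-0.88 ± 0.26) and KLF4 (-0.81 ± 0.11). Of 10 genes for the epithelial surface and its splicing regulators, 6 rose after 5-FU, 2 fell (ESRP1 and EPCAM) and 2 were not called, where 21.3% of all genes were called higher and 22.6% lower. EPCAM, the gene of the label check, had a log2 fold change of -0.36 ± 0.05 (adjusted p = 1.89e-06). The splicing regulator ESRP1 had a log2 fold change of -0.94 ± 0.07 and the protease inhibitor SPINT1 one of 0.57 ± 0.07. Only CA2 was tested among 16 genes of colonocyte and goblet cell differentiation, with a log2 fold change of -0.53 ± 0.08 after 5-FU (adjusted p = 8.49e-06).

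Among mesenchymal genes and the factors that repress CDH1, 1 of 6 tested rose after 5-FU (smooth muscle actin ACTA2, 1.71 ± 0.16), 2 fell and 3 did not pass, a share called of 3 in 6 where 43.9% of all genes were called. Vimentin (VIM), the intermediate filament protein of mesenchymal cells, had 37.5 and 36.3 CPM in 5-FU then DMSO against 80.8 and 75.8 CPM in DMSO then DMSO, a log2 fold change of -1.09 ± 0.07. SNAI1, a repressor of CDH1, had 4.99 and 4.87 CPM in 5-FU then 3-MB-PP1 against 10.0 and 10.4 CPM in 5-FU then DMSO, a log2 fold change of -1.05 ± 0.16. In that comparison it was the 1 gene of the list called lower, where 17.2% of all genes were, and 2 were called higher, ACTA2 (0.72 ± 0.12) and the matrix protein fibronectin (FN1, 0.40 ± 0.14), where 15.7% of all genes were.

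By Pearson correlation of log2 CPM over the 8 libraries, the genes most like KRT19 among 9802 compared included PEAR1 (0.997), EIF6 (0.997), ALDH1A3 (0.997) and SFN (0.995). SFN encodes 14-3-3 sigma and ran at 185 and 186 CPM in 5-FU then 3-MB-PP1, 306 and 283 CPM in 5-FU then DMSO, 102 and 104 CPM in DMSO then 3-MB-PP1, and 125 and 119.7 CPM in DMSO then DMSO. For KRT20 the most alike were EPN1 (0.959), ARGFX (0.931), NEO1 (0.905), NCRNA00094 (0.890) and ALDH5A1 (0.883), which rests on the 2 libraries with 1 and 2 KRT20 counts. These values describe 8 libraries that share their 4 treatments.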

How the data were processed

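RNA from HCT-116 cells was extracted, depleted of ribosomal RNA and sequenced single-end, per the labels' protocols. Reads were aligned to hg19 with TopHat2 2.0.13, per the submitters' processing notes. The sources used here name no counting tool, strand setting or treatment of reads with several matches. The deposited tables hold, for 41643 RefSeq transcripts and 92 ERCC spike-ins, a whole-number read count and the RPKM that the authors computed from it. RPKM served only for levels between genes and for ratios.

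Each symbol was represented by its most highly counted transcript, by mean over the 8 libraries. Of 6260 transcripts without a symbol 5902 were named by accession through the RefSeq gene table (GRCh38.p14, names only), and 4189 of them belonged to genes that also had named rows and were not used. This left 23857 genes, of which 15681 passed filterByExpr. Counts were scaled by TMM and fitted in 1 model of 4 groups with edgeR 4.0.16 (R 4.3.3, quasi-likelihood test, 4 residual degrees of freedom, common biological coefficient of variation 0.0423). p-values were adjusted by Benjamini-Hochberg over all genes of a comparison, at a threshold of 0.05. CPM are TMM-scaled. Gene counts per library ranged from 10560743 to 50405817, and intervals from counts cover counting error only. The procedure was tested on simulated data.

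The 10 genes and all lists were chosen with earlier results of these data known. All 10 genes are named. From other lists up to 3 called genes with the largest absolute log2 fold change per comparison were eligible for naming, with EPCAM, CDX1, CDX2 and VIL1 as label checks. For KRT19 and KRT20 the 5 genes with the highest correlation and a mean CPM of at least 10 are named, except 1 that is not reported here.

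Alternatives were DESeq2 size factors, spike-in scaling, no filter, the DESeq2 1.42.0 test, only the 2 groups compared, the longest transcript, a replicate block, leaving out each library and, chosen after seeing the data, an unnamed KRT8 transcript. Promoter windows came from RefSeq (GRCh38.p14) and untranslated exons from GENCODE v29.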

Additional observations from a re-analysis of the deposited data

Results flagged for a closer look

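The effect of 3-MB-PP1 after 5-FU and its effect after DMSO differed for 3 of the 10 genes, by the test of the difference itself (edgeR, adjusted over all genes). For CLDN7 the difference was -0.72 on the log2 scale (adjusted p = 0.00379), with 3-MB-PP1 libraries lower after 5-FU (34.8 and 27.3 CPM, against 45.6 and 36.5 CPM in 5-FU then DMSO) and higher after DMSO (41.0 and 43.6 CPM, against 32.3 and 35.0 CPM in DMSO then DMSO). KRT19 had a difference of -0.38 (adjusted p = 0.00212), lower in both settings. KRT18 had a difference of -0.23 (adjusted p = 0.0221), with a rise after DMSO and no call after 5-FU. The same test called 4.18% of all genes. The KRT18 rise and difference lost their calls in several fits without 1 library, while the differences of CLDN7 and KRT19 kept theirs. Spike-in scaling called none of these differences.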

How the results depend on the processing

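Of 50 gene and comparison pairs, 25 were called. DESeq2 size factors, the longest transcript and the unnamed KRT8 transcript (chosen after seeing the data) changed no call or direction. DESeq2 lost 7 calls, 11 calls were lost without at least 1 library and 0 of the called values reversed without one, as given with each gene. Spike-in scaling lost all 25, so 0 of the 10 genes were called in each comparison. In edgeR it called 243 genes after 5-FU, 112 for 3-MB-PP1 after DMSO, 53 for it after 5-FU, 426 with both drugs and 0 for the difference between the effects, where 73 had an unadjusted p under 0.05 and DESeq2 called 381. It turned KRT23 (0.13) and CLDN3 (0.10) positive for 3-MB-PP1 after DMSO, neither called. The DESeq2 test was run with its own scaling and not with the spike-ins. It called 2681 genes for 3-MB-PP1 after DMSO, 3374 for it after 5-FU and 381 for the difference between the effects. Of the 10 genes it called 4 with both drugs. Without the filter the difference between the effects was called for 367 genes higher and 559 lower, against 335 and 320 with it. Without the filter or in other fits KRT8, KRT18 and KRT20 gained calls for 3-MB-PP1 or for the difference in 11 cases. Without 1 library in turn the 10 genes had 5 to 7 calls after 5-FU, 2 to 4 for 3-MB-PP1 after DMSO, 2 to 5 for it after 5-FU, 4 to 7 with both drugs and 2 to 4 for the difference. Over all genes the same fits called 5456 to 7018, 3001 to 4558, 3334 to 5348, 6545 to 8052 and 250 to 913 in that order of comparisons. Values that crossed 0 in these fits, none called in the fit with all libraries, were KRT23 (-0.091 to 0.11) and CLDN3 (-0.041 to 0.24) after 5-FU, KRT23 (-0.11 to 0.0084), KRT80 (-0.10 to 0.29) and CLDN3 (-0.36 to 0.16) for 3-MB-PP1 after DMSO, KRT20 for it after 5-FU (-2.49 to 1.90), CLDN7 with both drugs (-0.29 to 0.055), and KRT20 (-1.45 to 2.95) and CLDN3 (-0.41 to 0.11) for the difference. The cause was not tested. KRT20, with 1 to 34 counts per library, and CLDN3 are limited by depth.

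Over all tested genes, deviations of same-numbered libraries from their group means correlated at -0.0599 to 0.041. Replicate numbers thus showed no pairing across genes as a whole, but a pairing that touches few genes would not be seen in these values. With the replicate block 6930, 4511, 5222, 7917 and 672 genes were called in the same order, no call among the 10 genes changed, and KRT20 for 3-MB-PP1 after 5-FU changed sign at 0.000848.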
